A study of Homo sapiens with 6 samples.

Results

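The genes described are 10 that encode surface receptors and integrins of monocytes, taken from a fixed list of names: ITGAM, ITGAX, ITGB2, CD14, CD33, CSF1R, CSF3R, FCGR2A, CCR1 and CCR2. All 10 were found by symbol among the 19974 protein-coding genes of the RefSeq table (GRCh38.p14). Their chromatin was profiled by ATAC-seq, which uses a transposase to tag accessible DNA, in U937, a long-established human line of monocytic type. The ΔNSPs group was 3 independent clones depleted at once of the neutrophil serine proteases CTSG (cathepsin G), ELANE (neutrophil elastase) and PRTN3 (proteinase 3), and the control group was 3 lines carrying control plasmids. Cells of both groups had been selected with geneticin at 500 ug/ml, treated with DNase at 200 units/ml for 30 minutes, washed, and frozen in medium with 5% DMSO. How the proteases were depleted is not given in the sources used here, so the ΔNSPs lines are read only as clones with that label, and differences between clones cannot be told apart from differences between libraries.

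Circulating monocytes carry these proteins to leave the blood, to take up coated particles and to sense bacterial products. ITGAM and ITGAX encode the alpha chains CD11b and CD11c, each of which pairs with the common beta chain CD18 from ITGB2 to form a complement receptor and adhesion molecule. CD14 presents lipopolysaccharide to the receptor TLR4, CD33 is an inhibitory sialic acid-binding lectin, CSF1R and CSF3R are the receptors of the macrophage and granulocyte colony stimulating factors, FCGR2A is an activating receptor for IgG, and CCR1 and CCR2 are chemokine receptors. Several of these genes are known targets of the myeloid transcription factors PU.1 and C/EBP.

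Each library was available as its own list of peaks, so a gene was described by the peaks listed near it and not by a signal level. On chromosomes 1 to 22, X and Y the lists held 14262, 24981 and 2188 peaks in ΔNSPs clones 1, 2 and 3, against 13, 4 and 2 in control lines 1, 2 and 3 (exact permutation test of log10(peaks + 1), two-sided p = 0.1, the lowest that a design of 3 against 3 can give). Read totals are unknown. A missing peak therefore means that no site passed the list's own threshold, a −log10 q of 2.00 or little more, and not that the site was closed. Of the depleted genes, CTSG had 1 peak within 1000 bp of a gene end, in clone 2, and ELANE and PRTN3 had none in any of the 6 libraries, which does not check the depletion.

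Peaks at a gene's start carry the clearest link to that gene, and the RefSeq promoter table lists starts for 8 of the 10 genes; ITGAX and ITGB2 are named only. Peaks lay across a listed start at 4 genes: ITGAM and FCGR2A in clones 1 and 2, CD33 in clone 2, and CSF3R in clone 1 at the second of its listed starts. The 250 bases before the ITGAM, FCGR2A and CD33 starts are shown here because peaks covered part of them, with those before the second CSF1R start as a window where no clone had a peak. They are given on the gene's strand (GRCh38.p14), and capitals mark the bases inside the peak of every clone that had one there.
ITGAM, chr16:31259725-31259974, plus strand: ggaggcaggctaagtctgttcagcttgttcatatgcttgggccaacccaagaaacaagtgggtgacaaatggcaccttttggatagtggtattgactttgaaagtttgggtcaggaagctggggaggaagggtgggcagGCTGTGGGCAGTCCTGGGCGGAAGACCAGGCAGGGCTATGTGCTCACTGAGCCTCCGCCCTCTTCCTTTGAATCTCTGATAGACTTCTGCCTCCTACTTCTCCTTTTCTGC
FCGR2A, chr1:161505207-161505456, plus strand: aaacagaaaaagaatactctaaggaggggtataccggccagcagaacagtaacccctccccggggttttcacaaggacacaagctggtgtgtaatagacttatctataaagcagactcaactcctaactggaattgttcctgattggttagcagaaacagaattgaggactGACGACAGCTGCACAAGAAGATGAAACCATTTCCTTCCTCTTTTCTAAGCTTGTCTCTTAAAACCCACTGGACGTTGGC
CD33, chr19:51224830-51225079, plus strand: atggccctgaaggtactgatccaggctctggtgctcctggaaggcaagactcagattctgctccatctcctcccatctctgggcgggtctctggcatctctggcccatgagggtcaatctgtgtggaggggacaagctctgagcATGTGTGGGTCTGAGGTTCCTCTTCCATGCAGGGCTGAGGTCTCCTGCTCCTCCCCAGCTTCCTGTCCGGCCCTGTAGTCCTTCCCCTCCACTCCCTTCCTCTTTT
CSF1R, chr5:150086555-150086804, minus strand: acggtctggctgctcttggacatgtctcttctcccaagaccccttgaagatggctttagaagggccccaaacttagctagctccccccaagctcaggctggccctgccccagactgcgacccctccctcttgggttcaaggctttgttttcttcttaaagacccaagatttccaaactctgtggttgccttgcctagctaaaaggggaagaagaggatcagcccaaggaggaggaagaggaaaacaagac

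Of the 250 bases, 111 and 122 lay in the ITGAM peaks of clones 1 and 2, and 175 and 79 in the FCGR2A peaks of clones 1 and 2. In CD33 106 bases lay in the clone 2 peak, and 48 of the bases before the second CSF3R start lay in the clone 1 peak. The windows were searched on both strands for 4 short motifs: GAGGAA, the core of PU.1 sites, GGGCGG, the Sp1 box, TGTGGT, the RUNX core, and TTGCNNAA, a C/EBP pattern. The ITGAM sequence held GGGCGG on its own strand 96 bases before the start and on the opposite strand 57 bases before it, both inside the peaks of clones 1 and 2, and GAGGAA 127 bases before it, outside them. On the opposite strand, GAGGAA began 45 bases before the FCGR2A start, inside both clones' peaks, and 90 and 10 bases before the CD33 start, inside the clone 2 peak. CD33 also held GGGCGG 170 bases before its start, and the second CSF3R window GAGGAA 111 bases before its start, both outside a peak. The CSF1R sequence held GAGGAA 20 and 14 bases before its start and TGTGGT 71 bases before it, with no peak over either. Windows with no peak held further matches: GAGGAA 96 bases before the CD14 start, GGGCGG on the opposite strand 108 bases before the first CSF1R start, and TGTGGT on the opposite strand 157 bases before the CCR1 start. The C/EBP pattern occurred 206 bases before the first CSF3R start and 196 bases before the CCR2 start, also with no peak over it. These letters are common: of 35116 listed starts, 23.6% held GAGGAA in the same window, 42.6% held GGGCGG, 11.0% held TGTGGT and 9.05% held TTGCNNAA. No match overlapped another, and a match is a description of the letters and not a binding site. GC content of the windows was 53.2, 44.4, 58.8 and 64.4% for ITGAM, FCGR2A, CD33 and the second CSF3R start, and 38.8 to 64.4% for the 6 windows without a peak, against a median of 58% over all listed starts.

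**Figure D1:**
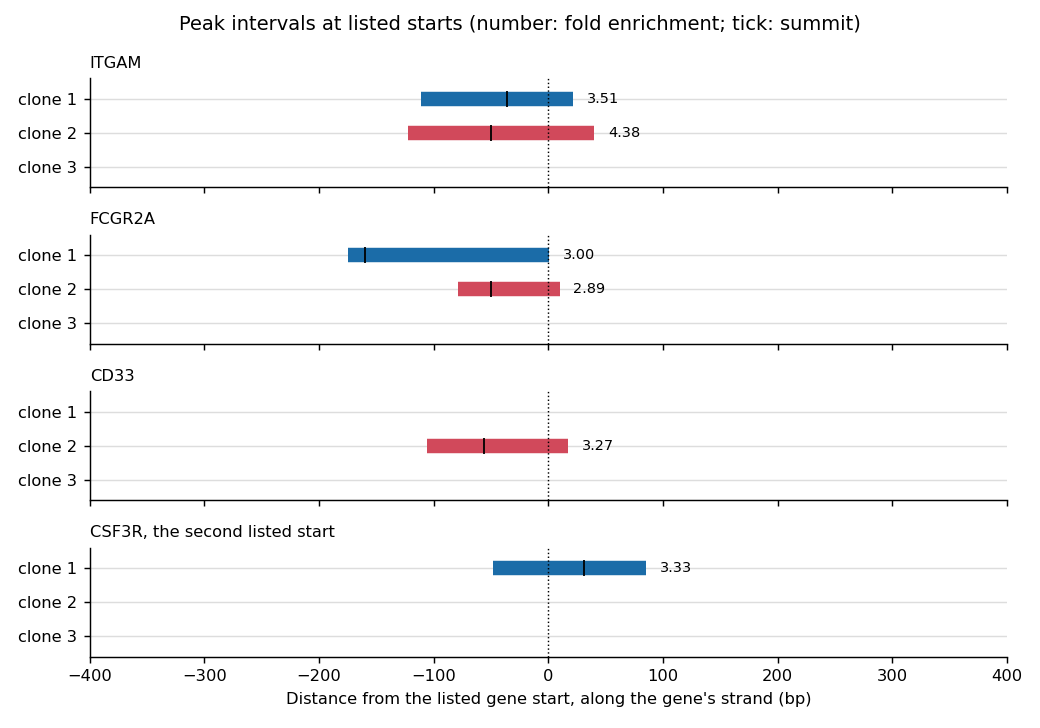
Peak intervals around the listed starts of ITGAM, FCGR2A, CD33 and the second listed start of CSF3R, by ΔNSPs clone, with distance in bp along the gene's strand on the x axis; black ticks are summits and the numbers are fold enrichments. ITGAM summits lie 36 and 50 bp before the start in clones 1 and 2, clone 3 has no peak at any of the 4 starts, and no control line has one.

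Among the integrin genes, the alpha chain ITGAM (chromosome 16, 31259975 to 31332877, gene ID 3684) had 3 sites that each recurred in a pair of clones, 1 of them at its start. Its start peak had a fold enrichment of 3.51 in clone 1 and 4.38 in clone 2, with a −log10 p of 7.36 and 10.6 and a −log10 q of 4.10 and 6.89. The fold is the authors' ratio of the pile-up of reads at the summit to the local background, read here with 1 added to each. The implied values were 21 reads over 5.26 in clone 1 and 25 over 4.93 in clone 2. These folds were ordinary for their lists, above 48.7 and 58.4% of the peaks of clones 1 and 2. A second site lay inside the gene, 42.3 and 42.2 kb after the start, with folds of 3.74 and 3.44 and −log10 q of 7.76 and 2.90 in clones 1 and 2. A further site lay 6.01 kb below the gene in clones 2 and 3, with folds of 5.78 and 3.13. That upstream site was the only ITGAM peak of clone 3, and it was near the threshold there, with a −log10 q of 2.15. None of the 3 sites was listed in all 3 clones.

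ITGAX (chromosome 16, 31355176 to 31382999, gene ID 3687), the next gene on the chromosome, begins 22.3 kb beyond ITGAM, so the peaks between them fell within 50 kb of both. Clone 2 had a peak 8 bp outside the lower end of ITGAX with a fold of 3.37 and a −log10 q of 3.70. It had another inside the gene with a fold of 3.85, and a pair 2.56 and 2.97 kb below the lower end with folds of 5.06 and 5.62. Clones 1 and 3 had no peak at or inside ITGAX. A strong site lay 17.2 kb above the higher end, inside ITGAD, the alpha chain gene of another CD18 integrin. Its fold enrichment was 6.17 in clone 2 and 5.65 in clone 3, above 91.7 and 96.9% of the peaks of those lists, with −log10 q of 9.12 and 9.01. It was the strongest of the 5 peaks of clone 3 near any of the 10 genes, and clone 1, with the second longest list, had none there.

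ITGB2 (chromosome 21, 44885953 to 44928815, gene ID 3689), the shared beta chain, had no gene-end peak in any library. Clone 2 listed 7 peaks inside the gene, with folds of 3.84 to 5.85, and clones 1 and 3 listed none inside it. The highest of these was at 44914246 to 44914378, with a −log10 q of 8.55, and 1 of them ended 20 bp short of the antisense gene ITGB2-AS1. Within 50 kb the counts were 2, 15 and 2 peaks in clones 1, 2 and 3. The site listed in all 3 clones there was at 44873632 to 44874210, at the end of PTTG1IP, a neighbouring gene 12 kb away, with folds of 4.67, 4.85 and 3.26. Another, 20 kb below ITGB2 and inside PTTG1IP, had folds of 4.81 and 5.24 in clones 2 and 3. The summit of highest −log10 q near ITGB2, 12.9 with a fold of 5.06, was listed in clone 2 alone and lay at the other end of PTTG1IP. The recurrent sites around ITGB2 thus lay outside it, and 2 of the 3 lay at or in PTTG1IP.

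**Figure D2:**
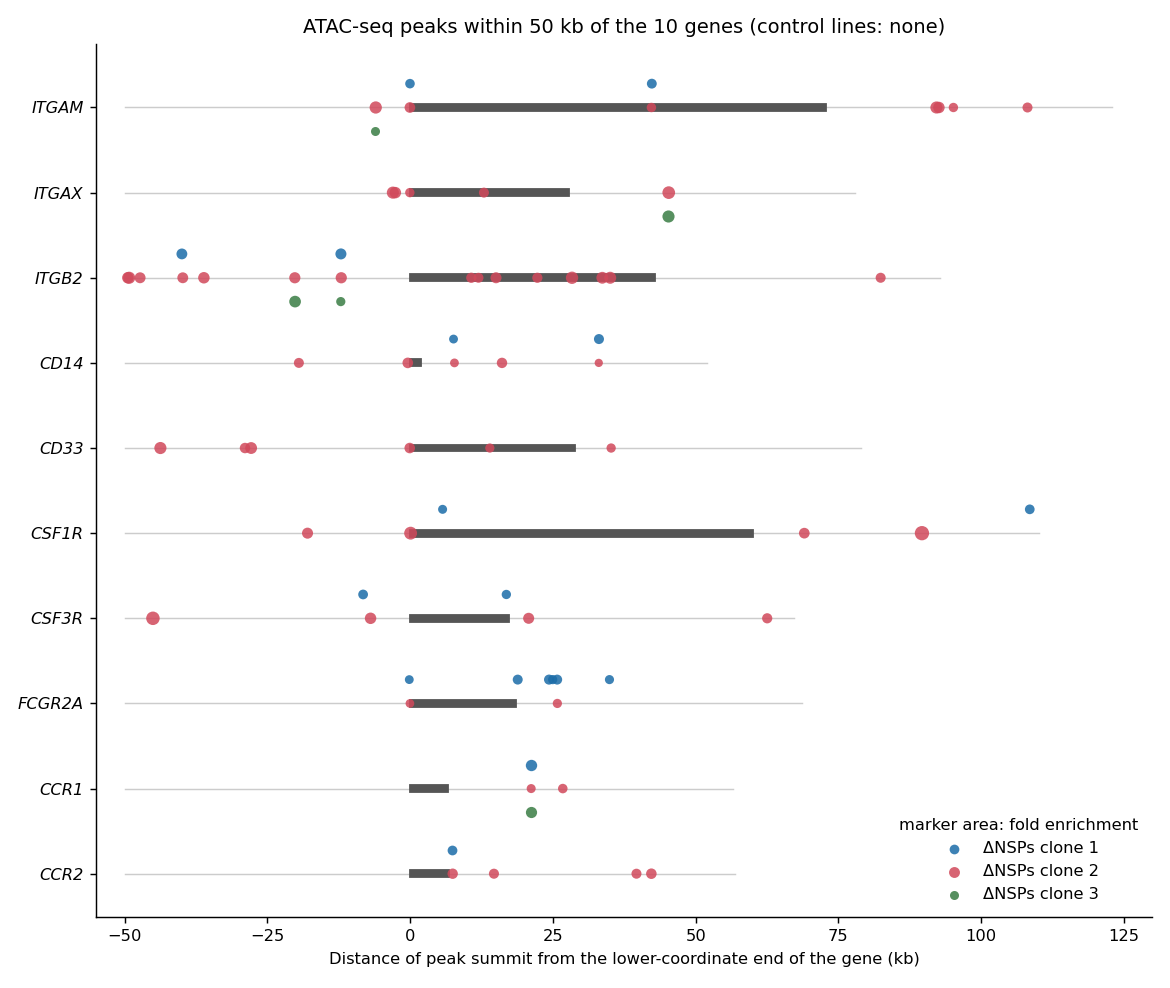
Map of peak summits within 50 kb of each of the 10 genes, with the distance in kb from the gene's lower-coordinate end on the x axis, the gene as a dark bar, and marker area proportional to fold enrichment; each gene has clone 1 above its line, clone 2 on it and clone 3 below it. Clone 2 has 50 of the 73 distinct peaks, clone 1 has 18 and clone 3 has 5, and peaks between ITGAM and ITGAX are drawn for both genes.

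CD14 (chromosome 5, 140631732 to 140633701, gene ID 929) had no peak at its listed start. Its gene-end peak was listed in clone 2 alone, 397 bp outside the lower end and therefore downstream of a gene on the minus strand, with a fold of 4.34 and a −log10 q of 7.87. The gene lies within the span the table gives to TMCO6, and most peaks near it do too. One of these, 5.52 kb above CD14, recurred in clones 1 and 2, with folds of 3.01 and 2.96. A second recurrent site was at the end of WDR55, with folds of 3.86 and 2.62. Clone 3 had no peak within 50 kb.

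CD33 (chromosome 19, 51211076 to 51240016, gene ID 945) had peaks in clone 2 alone, 6 within 50 kb. Besides the start peak, which had a fold of 3.27 and a −log10 q of 3.48, it had a peak 3 bp outside the lower end of the gene, with a fold of 4.29. That gene-end peak lay 14.1 kb before the listed start, which is inside the gene's span. The start peak's fold was above only 16.6% of the clone 2 peaks. The strongest of the 6, with a fold of 5.66 and a −log10 q of 13.9, lay 43.7 kb below the gene. With 0, 6 and 0 peaks in clones 1, 2 and 3, CD33 was the only one of the 10 genes whose peaks came from a single clone.

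The colony stimulating factor receptors had no site in common between clones. CSF1R (chromosome 5, 150053295 to 150113365, gene ID 1436) has 2 listed starts on the minus strand and no peak at either. Its gene-end peak, in clone 2, lay at 150053309 to 150053422, at the downstream end and within 1000 bp of HMGXB3. It had a fold of 6.37 and a −log10 q of 12.2, the highest fold of any gene-end peak of the 10 genes. The highest fold near any of them was also here, 7.86 at 29.6 kb upstream of the first start in clone 2, inside PDGFRB, which encodes a platelet-derived growth factor receptor. Clone 1 had a different site inside CSF1R, with a fold of 3.12, and clone 3 had none within 50 kb.

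CSF3R (chromosome 1, 36466043 to 36483314, gene ID 1441) had its start peak in clone 1, at 36482828 to 36482961, with a fold of 3.33 and a −log10 q of 2.58, from an implied 15 reads over a background of 3.80. The summit lay 31 bp after the second listed start and 432 bp after the first. Clone 2 had no peak in or at CSF3R, and its nearest was 3.42 kb above the gene's higher end, with a fold of 4.70 and a −log10 q of 7.58. The site near the gene thus differed between the clones, and clone 3 had none within 50 kb.

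FCGR2A (chromosome 1, 161505457 to 161524048, gene ID 2212) was the other gene with a start peak in 2 clones. The fold was 3.00 in clone 1 and 2.89 in clone 2, with −log10 p of 5.84 and 5.37 and −log10 q of 2.80 and 2.39, close to the threshold. The intervals overlapped, with summits at −160 and −50 bp from the start. Clone 1 had a second gene-end peak at the downstream end, shared with the heat shock protein gene HSPA6, with a fold of 3.81. That peak had the higher −log10 q of 5.43, and it had no counterpart in clone 2. Beyond it, clone 1 had 4 peaks, of which 3 covered a transfer RNA gene, and the one over TRG-TCC2-6 was also listed in clone 2, with folds of 3.84 and 3.27. Parts of this locus are known to have near-identical copies nearby, so the placing of reads there is uncertain.

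Of the chemokine receptors, CCR1 (chromosome 3, 46201711 to 46208313, gene ID 1230) had no peak at an end or inside. It did have, 14.5 kb above its higher end, which on the minus strand is upstream, a site listed in all 3 clones, at 46222803 to 46223006. The folds were 4.96, 3.14 and 4.81 and the −log10 q 8.25, 2.54 and 3.99 in clones 1, 2 and 3. This fold was above 90.3% of the peaks of clone 1 and 89.7% of those of clone 3, but above only 12.7% of those of clone 2. The site lies inside the span of CCR3, the neighbouring chemokine receptor, which had no gene-end peak in any clone. A peak list does not say which gene a site acts on.

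CCR2 (chromosome 3, 46354111 to 46360940, gene ID 729230) lies 146 kb beyond CCR1 and is on the plus strand. It had a gene-end peak in clones 1 and 2, at 46361366 to 46361593 and 46361508 to 46361646. These overlapping peaks lay 426 and 568 bp past the downstream end, 7.31 and 7.44 kb after the start, where no clone had a peak. The folds were 3.66 and 4.13 and the −log10 q 2.53 and 7.59. Clone 3 had no peak within 50 kb of CCR2.

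**Figure D3:**
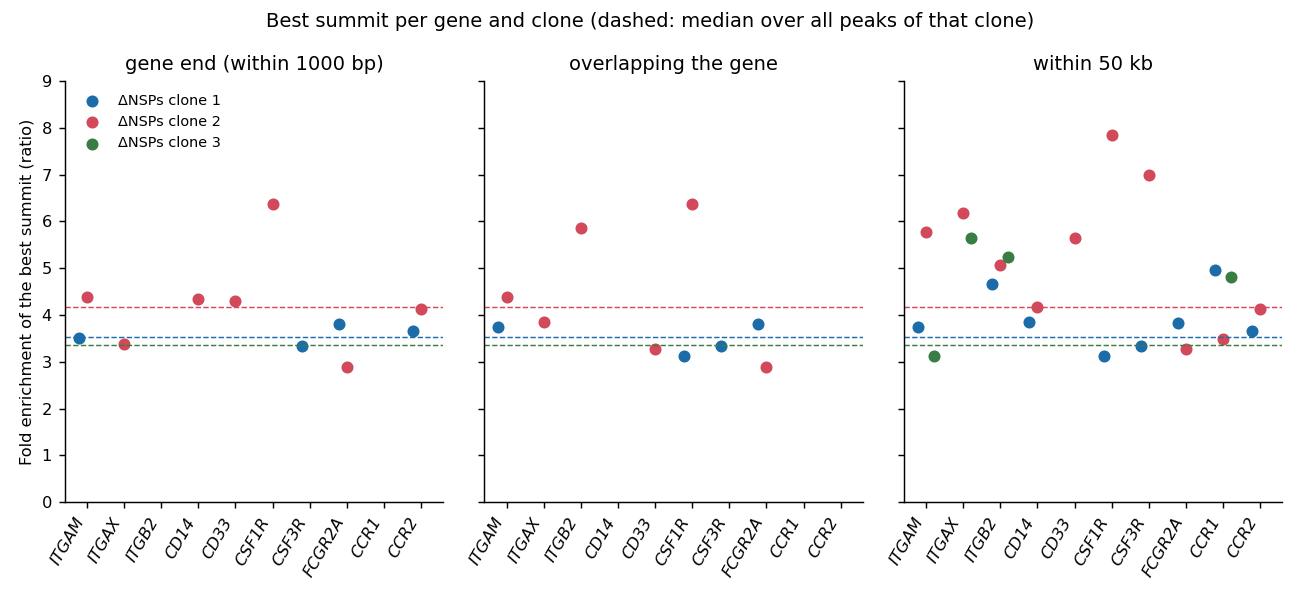
Fold enrichment (ratio to local background, linear axis) of the summit with the highest −log10 q for each gene and ΔNSPs clone, at the gene ends, over the gene, and within 50 kb; dashed lines are the median fold over all peaks of clones 1, 2 and 3 (3.54, 4.16 and 3.35). Gene-end folds run from 2.89 to 6.37, clone 3 has points only in the panel for 50 kb, and control lines have none.

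Counted over the 10 genes, gene-end peaks were listed at 4, 7 and 0 genes in clones 1, 2 and 3, and at 0 in each control line. Over all protein-coding genes the shares were 39.1, 29.6 and 6.55% in clones 1, 2 and 3, and 0.00501, 0 and 0% in control lines 1, 2 and 3. The count in clone 1 was thus at the background and that in clone 2 above it. Of the 7 genes in clone 2, CD14, CSF1R and CCR2 had their peak at the downstream end. The peak counted for CD33 lay 14.1 kb before its listed start. At listed starts the clone 2 count was 3 of 8 genes, against 32% of all genes with a listed start, and in clones 1 and 3 it was 3 and 0 of 8, against 42.1 and 6.91%. In at least 2 clones, 3 of 10 genes (ITGAM, FCGR2A and CCR2) had a gene-end peak, against 23.3% of all genes, and 2 of 8 had a start peak, against 25.4%. These shares were close to those of all genes. No gene had a gene-end peak in all 3 clones, against 5.4%. When clones 1 and 2 were reduced to the 2188 peaks of highest −log10 q, the length of the clone 3 list, no gene had a gene-end peak in any clone, against 9.53, 5.31 and 6.55% of all genes in clones 1, 2 and 3. At a −log10 q of at least 5 the counts were 1, 4 and 0, against 22.5, 18.9 and 1.83%, and at a fold of at least 5 they were 0, 1 and 0, against 4.7, 5.34 and 0.17%.

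Peaks overlapping the gene were listed at 4, 6 and 0 genes in clones 1, 2 and 3, against 40.6, 37.1 and 5.77% of all genes, and at none in the control lines, against 0.02, 0.00501 and 0%. In at least 2 clones they were listed at 3 genes (ITGAM, CSF1R and FCGR2A), against 24.6%, and in all 3 clones at none, against 4.27%. The CSF1R peaks of clones 1 and 2 were different sites. At a −log10 q of at least 5 the counts over the gene were 2, 3 and 0, against 23.3, 23.5 and 1.66%. Within 50 kb a peak was listed at 8, 10 and 4 genes, against 70.5, 75.4 and 22.5% of all genes. It was 9 genes in at least 2 clones and 3 in all 3 clones, against 62.5 and 21.1%. The 4 genes of clone 3 were ITGAM, ITGAX, ITGB2 and CCR1, and the clone 3 sites of ITGAX and ITGB2 lay in or at ITGAD and PTTG1IP. Within 100 kb the counts were 10, 10 and 7 genes, against 79.2, 84.4 and 30.2% of all genes. No control line had a peak within 50 kb of any of the 10 genes, against 0.0701, 0.01 and 0.015% of all genes in control lines 1, 2 and 3. With lists of equal length the counts within 50 kb were 3, 3 and 4 genes in clones 1, 2 and 3, against 25.8, 22.1 and 22.5%, and ITGB2 was the gene found in all 3. At a −log10 q of at least 5 they were 5, 10 and 2 genes, against 49.6, 58.2 and 7.62%. The median number of peaks within 50 kb was 2, 4.5 and 0 per member gene in clones 1, 2 and 3, against 1, 2 and 0 over all genes. The mean was 1.8, 5.4 and 0.5 against 2.03, 2.65 and 0.340, so in clone 1 the median was higher and the mean lower near the member genes. The genes were about as long as others, with a median of 23.2 kb against 24.2 kb.

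**Figure D4:**
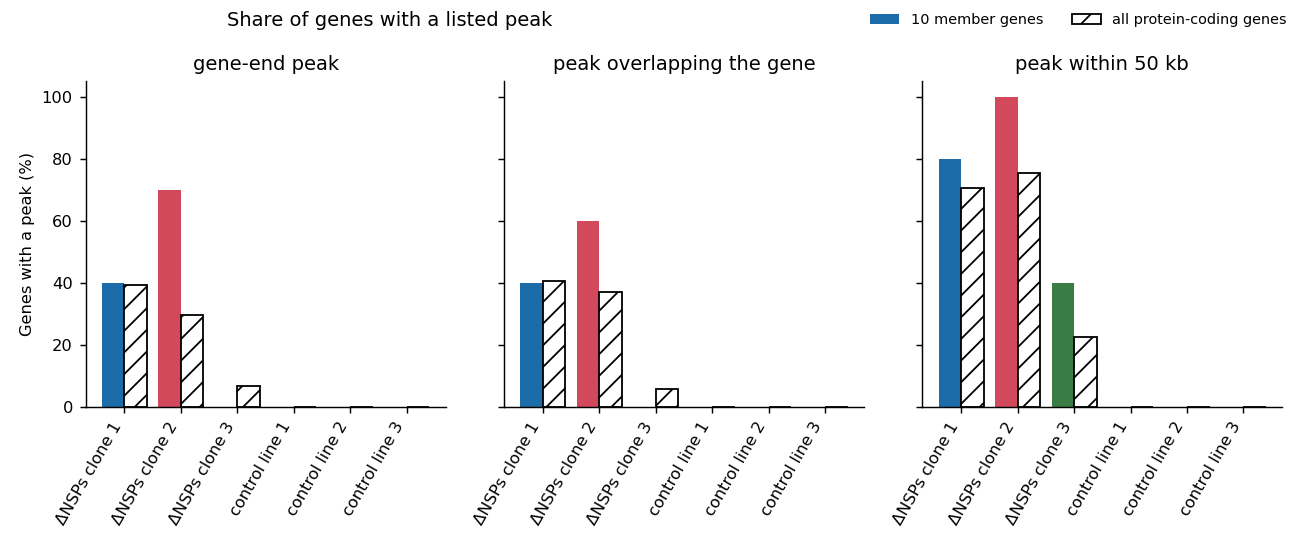
Percentage of genes with a listed peak in each of the 6 libraries, for the 10 member genes (filled bars) and all 19974 protein-coding genes (hatched bars), at gene ends, over the gene and within 50 kb. In clone 1 the bars are of like height, in clone 2 the member bars are higher (70% against 29.6% at gene ends), and the control lines are at or near 0.

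The number of peaks within 50 kb was compared between the groups gene by gene. ITGAM had 2, 7 and 1 peaks in ΔNSPs clones 1, 2 and 3 and none in any control line, a mean of 3.33 ± 3.21 against 0 (SD, n = 3 each, exact two-sided permutation p = 0.1). ITGB2 had 6.33 ± 7.51 and CCR1 1.33 ± 0.577 peaks in the clones, against 0 in the control lines (SD, n = 3, exact permutation p = 0.1 for each). In these 3 genes every clone was above every control line, which held for 21.1% of all protein-coding genes. For ITGAX, CD14, CSF1R, CSF3R, FCGR2A and CCR2, 1 clone was at 0 like the control lines (exact permutation p = 0.4 for each, n = 3), and for CD33 2 were (p = 1, exact permutation). Adjusted over all 19974 genes by Benjamini-Hochberg, the exact permutation p was 0.475 for ITGAM, ITGB2 and CCR1. No gene differed between the groups past a threshold of 0.05, which 3 against 3 cannot reach. The control lists also required a smaller p: the lowest −log10 p was 4.89, 4.86 and 5.75 in the lists of clones 1, 2 and 3, against 7.45 or more in each control list. Of the peaks near the 10 genes, 7 of 18, 32 of 50 and 3 of 5 in clones 1, 2 and 3 had a −log10 p at or above the lowest in every control list. The part of these thresholds in the difference was not tested.

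Across the 10 neighbourhoods the 73 distinct peaks of the clones merged into 58 separate sites. Of these, 45 were listed in 1 clone, 11 in 2 clones and 2 in all 3, so 22.4% were listed in at least 2 clones, against 20.9% of all sites of the clones in the genome, of which 3.82% were listed in all 3. Of the sites found in 1 clone, 8 were of clone 1, 37 of clone 2 and none of clone 3. All 5 clone 3 peaks near these genes therefore had a counterpart in clone 1 or clone 2. Neither this share nor the split of sites found in 1 clone was computed over the whole lists. A site of at least 2 clones lay within 50 kb of 7 of the 10 genes, against 51.3% of all genes. A site of all 3 clones lay within 50 kb of ITGB2 and CCR1, 2 of 10, against 17.2%. Summits near the genes rested on few reads, with median implied pile-ups of 21.5, 20 and 21 reads over median backgrounds of 5.41, 3.45 and 3.95 in clones 1, 2 and 3.

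Related genes of the same pathways differed from list to list. Of 15 other integrin chains, adaptors and ligands, 8, 7 and 1 had a peak at a gene end in clones 1, 2 and 3, and for 7 genes this held in at least 2 clones. These are 53.3, 46.7 and 6.67% of the list, against 39.1, 29.6 and 6.55% of all protein-coding genes, for which 23.3% had such a peak in at least 2 clones. They were the integrin chains ITGAL, ITGA4, ITGA6 and ITGAV, the adaptor TLN1, which couples integrins to actin, and the ligands ICAM1 and ICAM3. ITGAL, the CD11a chain that also pairs with CD18, had a fold of 3.16 in clone 1 and 3.92 in clone 2. TLN1 had 3.14, 5.58 and 2.32 in clones 1, 2 and 3, in a peak also counted for CREB3. The peaks of ICAM1 in clones 1 and 2 lay at opposite ends of the gene, so it had no shared site. The ICAM1 peak of clone 1 was also counted for ICAM4, and both ICAM3 peaks were also counted for RAVER1.

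The same shares of all genes, 39.1, 29.6 and 6.55% in clones 1, 2 and 3, stand behind the counts of the other lists. Of 13 other chemoattractant receptors, 0, 1 and 0 had a gene-end peak in clones 1, 2 and 3, and none had one in at least 2. CCR3, CXCR4 and FPR1 were among the 12 with none. Of 9 chemokines that bind CCR1 or CCR2, CCL5 alone had one, in clones 2 and 3, with folds of 5.05 and 4.85. Of 7 other Fc receptors 0, 2 and 0 had one, of 9 other genes of the colony stimulating factor axis 1, 2 and 0, and of 11 genes of the CD14 and TLR4 pathway 3, 0 and 0. Among these 3 lists no gene had one in at least 2 clones. Of 13 other Siglecs, 1, 2 and 0 had one, and SIGLEC6 had it in clones 1 and 2, with folds of 3.79 and 5.27.

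Markers of cell identity were counted in the same way. Of 12 myeloid markers, 4, 4 and 1 had a gene-end peak in clones 1, 2 and 3, or 33.3, 33.3 and 8.33%, near the 39.1, 29.6 and 6.55% of all genes. CEBPE, a factor of granulocyte maturation, had a fold of 4.17 in clone 1 and 4.15 in clone 2, and CD68, a macrophage glycoprotein, had 3.98, 4.49 and 3.08 in a peak also counted for EIF4A1. SPI1, LYZ, MPO, IRF8, MNDA and FCN1 had none in any clone. With myeloid markers near the share of all genes, the gene-end counts do not check the monocytic label. Of 6 B cell markers 0, 1 and 0 had one, of 7 T cell markers 1, 1 and 0, of 7 erythroid and megakaryocyte markers 1, 1 and 1, and of 6 epithelial markers none. The T cell gene was CD3E, with a fold of 2.55 in clone 1 and 4.10 in clone 2, and the erythroid gene was KLF1, with 5.68, 5.06 and 2.71. No gene of these lists had a gene-end peak in a control line.

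**Figure D5:**
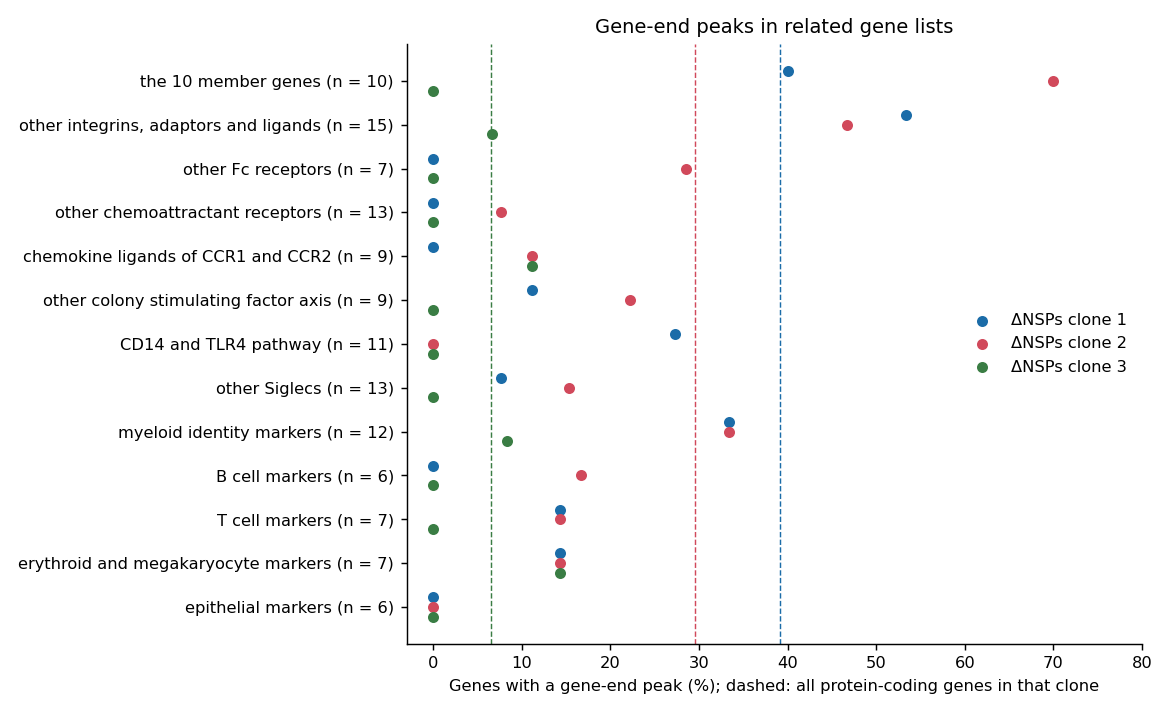
Percentage of genes with a gene-end peak in each ΔNSPs clone for the 10 member genes and 12 related or marker lists, with the number of genes matched in brackets; dashed lines are the share of all protein-coding genes in each clone (39.1, 29.6 and 6.55%). Other integrin genes are above the line in clones 1 and 2 (53.3 and 46.7%), and other chemoattractant receptors are below it in every clone.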

How the data were processed

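The data were 1 peak list per ATAC-seq library, from 3 ΔNSPs clones and 3 control lines, grouped by sample title. Whether control lines came from separate cultures is not stated, so p-values measure the spread between these libraries. Per the submitters' processing notes, FastQC, Bowtie2, Picard and MACS2 were used on GRCh38. Versions, settings and any shift of reads were not given in the sources used here. The authors' lists give a fold enrichment (ratio) and deposited −log10 p and −log10 q values per summit. The deposited score was not used. Summit offsets below 0, in 127 lines of clone 2, were set to 0.

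Lines sharing an interval were counted as 1 peak with its summit of highest −log10 q. A gene-end peak overlapped a window of 1000 bp either side of a gene end by at least 1 bp. Gene positions came from RefSeq (GRCh38.p14), and the start, strand and sequence of 8 genes from its promoter table. Pile-ups were solved as whole reads from fold = (pile-up + 1)/(background + 1) and a Poisson tail, with the listed −log10 p recovered within 0.005 for 100% of peaks near the genes. The rule for naming genes took all 10 members and listed genes with a gene-end peak in 2 or more clones or in clone 3. It also took genes sharing a member's peak. CREB3, ICAM4, RAVER1 and EIF4A1, which share a listed gene's peak, were named beyond the rule. Listed genes named as having no peak were beyond it too and were chosen after the values were seen. The members and lists were chosen with earlier results of these data known. Motifs and the start-only count were chosen after the lists were read. FCGR2C did not match a protein-coding gene. Some values near the members are not reported here. The window assignment was tested on simulated data, with peaks planted only at long genes far from each other. Short genes such as CD14 and close neighbours such as ITGAM and ITGAX were not covered. Python 3.11.15, pandas 2.3.3, numpy 2.4.6, scipy 1.17.1 and matplotlib 3.10.9 were used.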

Additional observations from a re-analysis of the deposited data

How the results depend on the processing

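The group difference in peaks per library kept its direction under the alternatives run. Within 50 kb of each of the 10 genes the control lines had 0 peaks, so the difference there could not turn negative. Its direction is therefore no check of stability. Without clone 2, CD33 had 0 peaks in both groups and no difference. The difference in log10 peaks was 3.19, with an exact sign-flip permutation p of 0.25, the smallest that 3 pairs allow, when the replicate block paired same-numbered libraries. The numbers mark no shared batch, so the pairing has no basis in the design. Neither form of the test could reach the threshold of 0.05, so no call could change. Without each library in turn the log10 difference was 2.97 to 3.50, and over all sequences in the files 2.68.

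The counts of genes depended on the threshold. With a −log10 q of 5 or more, gene-end peaks were listed at 1 and 4 genes in clones 1 and 2 and at 0 genes in at least 2 clones, peaks overlapping the gene at 2 and 3 genes in clones 1 and 2 (23.3 and 23.5% of all genes), and peaks within 50 kb at 5 and 2 genes in clones 1 and 3. With a fold of 5 or more, gene-end peaks were left at 0 and 1 genes in clones 1 and 2 (CSF1R) and at 0 in at least 2 clones. With clone lists of equal length they were left at 0 and 0 genes in clones 1 and 2 and 0 in at least 2 clones, with 3 and 3 genes within 50 kb. The shares of all genes in single clones at these settings are given above. For at least 2 clones that share was not computed at these settings. At listed starts alone, clone 2 had 3 genes. Within 100 kb clone 3 reached 7 genes, against 30.2% of all genes. Without each clone in turn, 0 to 3 genes had a gene-end peak in both remaining clones: 0 without clone 1, 0 without clone 2, and 3 without clone 3. Clone 3 had a gene-end peak at 0 of the 10 genes and 6.55% of all genes, so pairs with it could only give 0. The share of all genes was not computed for each pair. Windows of 500 and 2500 bp, the summit in place of the overlap, and a distance of 25 kb kept each count within 1.5 times its value. At 500 bp CCR2 dropped out of clone 2, which left 6 genes there and 2 genes in at least 2 clones. Fewer peaks entered under each stricter setting. Depth is unknown, and the low pile-ups limit what a missing peak shows.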
